A study of Drosophila melanogaster with 4 samples.

Results

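The genes described here are br (the Broad-Complex, at the polytene puff 2B), Eip74EF and Eip75B of Drosophila melanogaster, the classic early ecdysone puff genes. H3K23ac, the acetylated lysine of the histone H3 tail, was mapped around them by chromatin immunoprecipitation and sequencing (ChIP-seq). The members are all regions called as enriched, termed clusters, that overlap 1 of 3 gene windows by at least 1 bp, whatever their score or width. The windows are X 1460000 to 1610000 for br, 3L 17540000 to 17640000 for Eip74EF and 3L 17930000 to 18080000 for Eip75B, in FlyBase release 5, and each includes a margin around its gene. They held 10 of the 6267 clusters of ChIP replicate 1, 40 of the 11757 clusters of ChIP replicate 2 and 55 of the 17999 clusters of the replicate set, a further list that the authors made for both replicates. Both ChIP libraries came from nuclei of wild-type Oregon-R larvae at the third instar, without any treatment, and each had an input library of the same material as its control. No list of the inputs was used here. Larvae were taken whole from bottles and their age within the instar is not given, so tissues and hormone states are mixed, and fewer cells with the mark cannot be told apart from less of the mark per cell.

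Ecdysone, the steroid hormone of moulting and metamorphosis, binds a nuclear receptor made of EcR and Usp. In salivary gland chromosomes its pulse at the end of larval life opens a few early puffs, whose genes encode transcription factors that switch on many late genes and later shut the early puffs again. The gene br encodes a family of zinc finger proteins with a shared BTB domain that are needed for entry into metamorphosis. Eip74EF encodes ETS-domain transcription factors. Eip75B encodes nuclear receptors that bind haem and are related to the vertebrate Rev-erb proteins. Acetylation of histone tails is generally found in open and transcribed chromatin.

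In the RefSeq gene table of release 6, used for names and order, br (Dmel_CG11491) lies between inc and dor and overlaps Mur2B. Eip74EF (Dmel_CG32180) lies between CycT and Vps60. Eip75B (Dmel_CG8127) lies between CG5290 and CG44006 and overlaps CG32192 and CG42393. Gene bounds of release 5 were not used here, so clusters are placed by their position in the window and not by promoter, exon or intron, and those near a window's ends may belong to a neighbour.

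The sources used here give no read totals, and depth is unknown. The lists of replicates 1 and 2 covered 12.6 and 30.0 Mb, and the replicate set 49.8 Mb, so coverage was read against other windows of the same list. Clusters covered 4.98% of X and 11.02% of 3L in replicate 1, 17.0% of X and 24.3% of 3L in replicate 2, and 30.8% of X and 41.6% of 3L in the set. Each gene window was compared with all other full windows of its length on its arm, laid end to end from it in both directions and leaving out the gene windows. With 2 replicates, and with windows that are no replicates of a condition, ranks are descriptions and no test was made. Nothing says that the replicates came from separate collections, so their spread may be technical. The set was made for the same 2 replicates, so its values are no independent observation beside theirs.

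The br window carried more called H3K23ac than most of X in replicate 2 and in the set. In replicate 1 it lay between the median and the mean of the other X windows. Clusters covered 4.88% of it in replicate 1, where 147 other X windows had a median of 3.71% and a mean of 5.01%. In replicate 2 they covered 41.3% of it, against a median of 13.9% in the other windows. In the set the br window was covered to 51.3% and the other windows to a median of 28.5%. It exceeded 91, 136 and 131 of the 147 windows in replicate 1, replicate 2 and the set. Of these 147 windows, 14, 4 and 1 held no cluster in the same lists. Over both replicates coverage was 23.1 ± 25.7% and the ratio to the median window 2.15 ± 1.18 (SD, n = 2), so the SD is larger than the mean coverage itself.

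**Figure D1:**
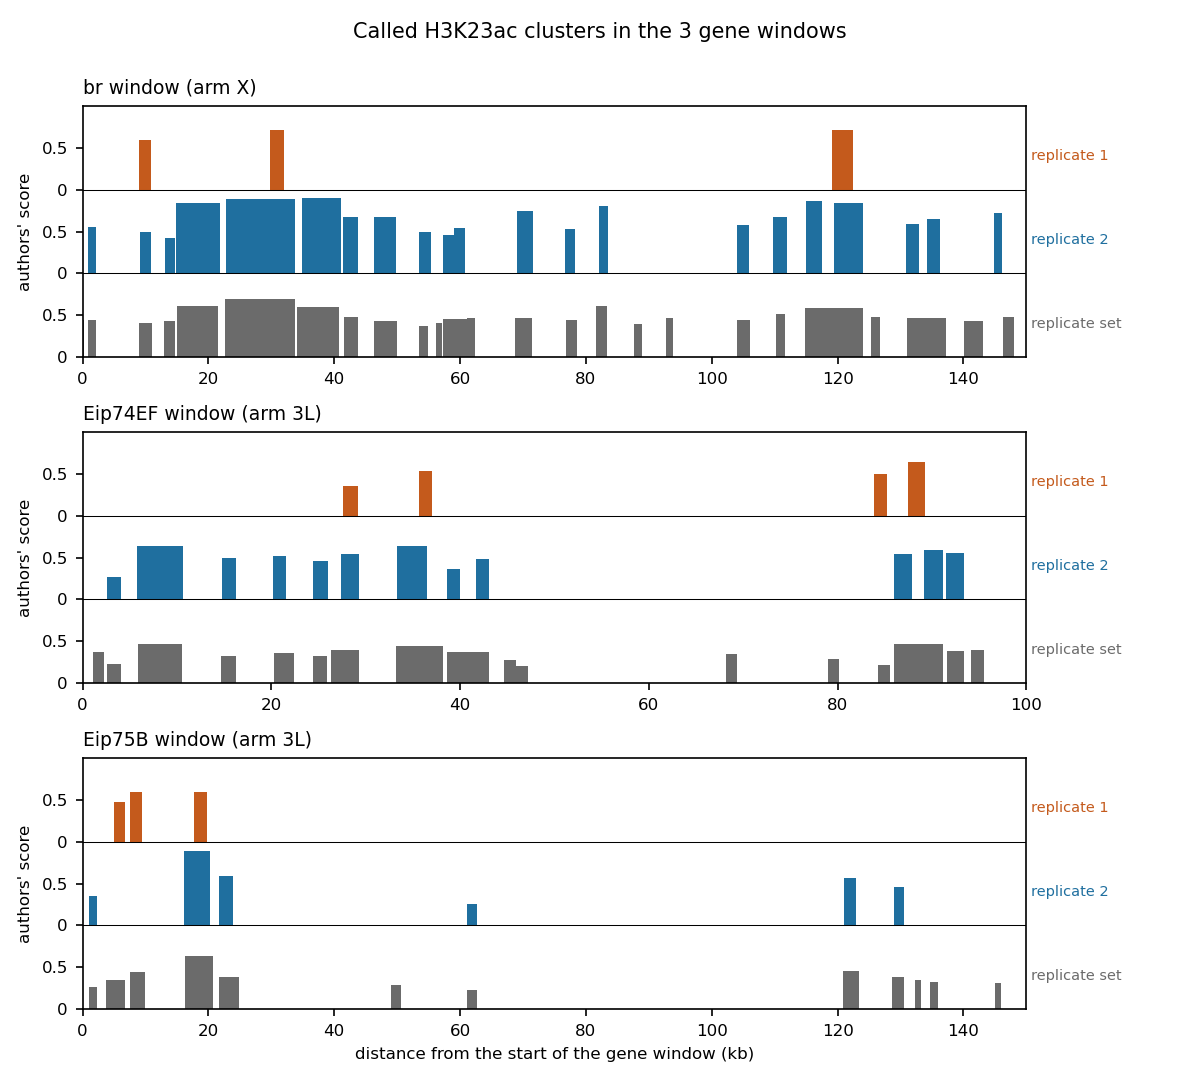
Clusters called as enriched for H3K23ac in the br, Eip74EF and Eip75B windows, by distance from the window's start (kb, x axis). Each bar spans a cluster and its height is the authors' score in that list (no unit), with 1 row for each replicate and 1 for the replicate set. The br row of replicate 2 holds 22 clusters, whereas the middle of the Eip75B window is nearly empty in all 3 lists.

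Replicate 2 had more clusters at br than replicate 1, a few of them very wide. Replicate 1 had 3 clusters there, 1847, 2225 and 3248 bp wide. Replicate 2 had 22, from 1314 to 10971 bp wide, and the set 25, from 1001 to 11053 bp wide. Coverage in replicate 2 was 8.46-fold that in replicate 1. Among the 133 other X windows with any cluster in replicate 1 the median of this ratio was 3.42, and 12 of them had a higher ratio than br. The gap of 36.4 percentage points was exceeded in 3 of 147 windows. When replicate 2 was reduced to its 6267 best-scored clusters, an alternative chosen after seeing the data, the br window still held 16 clusters and was covered to 34.6%, which was 3.13 times the median window.

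Within br, H3K23ac clusters of replicate 2 and the set were dense at the end with lower coordinates. In replicate 1 the ends of the window differed little. The first 50 kb of the window were covered to 8.14%, 69.1% and 71.2% in replicate 1, replicate 2 and the set. The middle 50 kb were covered to 0%, 21.6% and 32.3%, and the last 50 kb to 6.50%, 33.2% and 50.3%. The widest cluster of replicate 2, from 1482772 to 1493742, stood between one of 7046 bp and one of 6139 bp. These 3 clusters and their neighbours formed a near-continuous run from 1473179 to 1503762. This run was picked out after its values were seen, by joining clusters up to 1500 bp apart. It spanned 30584 bp with 5 clusters and 91.4% coverage, and 1 of the 1199 runs that replicate 2 had on X was longer. Replicate 1 covered 7.28% of it, with the single cluster from 1489809 to 1492033.

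The other replicate 1 clusters of br were matched too. The cluster from 1468956 to 1470802 overlapped one of replicate 2 from 1469194 to 1470851. The longest stretch of br called in both replicates was 2936 bp, from 1579467 to 1582402, inside the widest and highest-scoring br cluster of replicate 1. That cluster ran from 1579155 to 1582402 with a score of 0.718, above 97.3% of its list. In replicate 2 the highest score in br, 0.902, belonged to the cluster from 1494887 to 1501025 and lay above 99.3% of that list. In the set the cluster from 1482666 to 1493718 was both the widest, with 11053 bp, and the highest-scoring, with 0.690.

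Scores at br were high, on an arm whose scores are high throughout. Among the best-scored 10% of their own list were 2 of the 3 br clusters in replicate 1, 8 of 22 (36.4%, exact binomial 95% interval 17.2 to 59.3) in replicate 2 and 6 of 25 (24%) in the set. For all clusters of X these shares were 39.5%, 25% and 19%. The share at br was therefore above that of X in each list, but the share of X lay inside the exact interval at br in each of them. The median score at br was 0.718 against 0.633 for the rest of X in replicate 1, 0.658 against 0.623 in replicate 2 and 0.463 against 0.434 in the set. Median widths at br were 2225, 2009 and 2043 bp, against 1618, 1905.5 and 1752 bp for the rest of X in the same lists.

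Coverage at br was nevertheless lower than in the windows directly beside it. In replicate 1 the br window had 4.88%, against 11.7% in the window of the same length on the side of lower coordinates and 14.8% on the other side. In replicate 2 it had 41.3%, against 61.2% and 45.8%, and the first of these was the most covered window of X in that list. In the set it had 51.3%, against 75.4% and 62.3%. The br window was thus lower than both neighbours in each of the 3 lists.

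**Figure D2:**
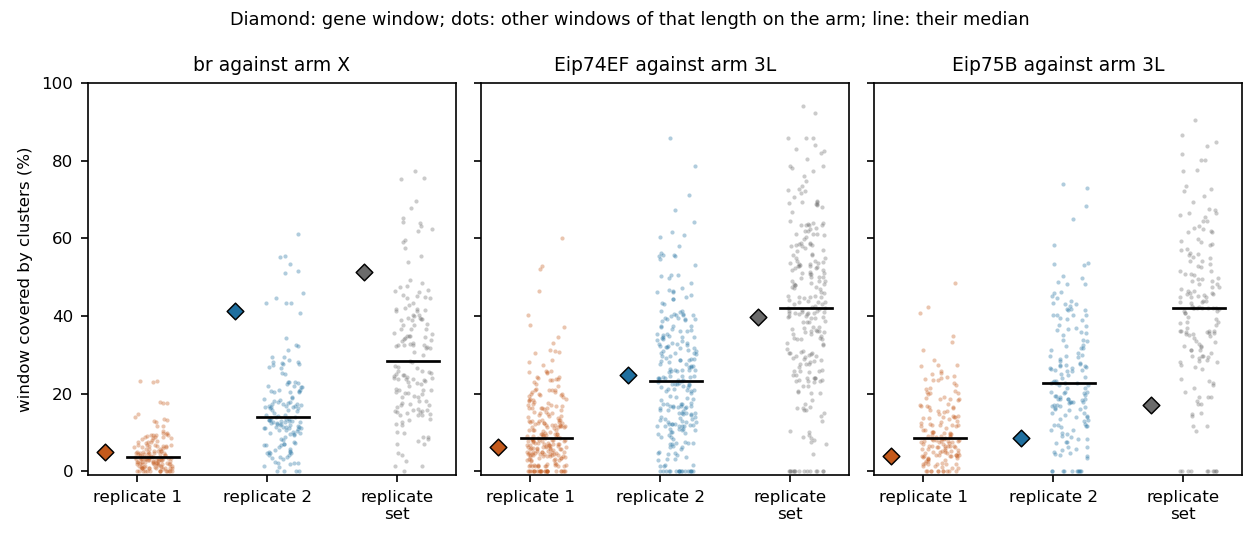
Share of a window covered by H3K23ac clusters (%, y axis) for each gene window (diamonds) and for the other windows of its length on the same arm (dots, with their median as a line), by list. The br diamond lies above its median in each list, the Eip74EF diamond near it, and the Eip75B diamond below it.

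The Eip74EF window was covered somewhat less than the typical window of 3L in replicate 1 and about as much in replicate 2 and the set. Clusters covered 6.17% of it in replicate 1, against a median of 8.56% in 241 other windows. In replicate 2 they covered 24.7%, against 23.2%, and in the set 39.6%, against 41.99%. It exceeded 91, 132 and 104 of the 241 windows, of which 26, 17 and 15 held no cluster at all. The mean over replicates was 15.4 ± 13.1% and the ratio to the median window 0.893 ± 0.243 (SD, n = 2), so the ratio differed from 1 by less than its SD. With replicate 2 reduced to the list length of replicate 1, its ratio was 1.47 with 6 clusters, whereas that of replicate 1 was 0.721, so the replicates lay on opposite sides of the typical window.

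H3K23ac at Eip74EF formed a group of clusters at either end of the window with a sparse middle. In replicate 1 the 4 clusters lay from 17567597 to 17569197, 17575650 to 17576971, 17623877 to 17625222 and 17627404 to 17629308. In replicate 2, 9 of 12 clusters started before 17590000 and the other 3 lay between 17625972 and 17633371. Between these groups replicate 1 was free of clusters for 46.9 kb and replicate 2 for 42.96 kb. Of the gaps between clusters on 3L, 107 of 1354 in replicate 1 and 45 of 2413 in replicate 2 were longer. Where both replicates were free of clusters, the set had 4 narrow ones of 1265, 1277, 1197 and 1107 bp. The replicate lists hold no cluster below 1301 bp, whereas the set goes down to 1001 bp. Clusters of these 4 widths could therefore appear in the set only. A stretch of 20.9 kb, from 17587237 to 17608153, had no cluster in any list.

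In the full lists, Eip74EF clusters had a lower median width than those of 3L, and middling or low scores. Their median width was 1473.5 bp against 1691.5 bp for the rest of 3L in replicate 1, 1752 against 1890 bp in replicate 2 and 1551 against 1883 bp in the set. Median scores were 0.516 against 0.542, 0.533 against 0.531 and 0.359 against 0.374 in the same lists. None of the 4, 12 and 17 clusters was among the best-scored 10% of its list, where 6.72%, 6.46% and 6.9% of the clusters of 3L were. The upper exact binomial 95% limits for these counts of 0 were 60.2%, 26.5% and 19.5%, so the shares of 3L lay inside the intervals. The intervals treat clusters as independent, and no test was made. The widest and highest-scoring cluster of replicate 1 was the one from 17627404 (1905 bp, score 0.643). In replicate 2 the widest ran from 17545795 to 17550673 (4879 bp), near the window's start, and the highest score, 0.640, belonged to the cluster from 17573276 to 17576469. In the set the widest ran from 17625948 to 17631202 (5255 bp), and the highest score, 0.471, belonged to the cluster from 17545828 to 17550544.

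The Eip75B window carried less called H3K23ac than most of 3L in each of the 3 lists. Clusters covered 3.93% of it in replicate 1, against a median of 8.65% in 160 other windows. In replicate 2 they covered 8.46%, against 22.7%, and in the set 17.1%, against 42.1%. It exceeded 33, 25 and 16 of the 160 windows, of which 11, 10 and 10 held no cluster at all. The mean over replicates was 6.19 ± 3.20%, and the ratio to the median window was 0.414 ± 0.0577 (SD, n = 2), a distance from 1 larger than its SD. With replicate 2 reduced to the list length of replicate 1, the replicates had 3 clusters each in the window, and replicate 2 covered 5.38% of it.

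Its H3K23ac clusters stood at the ends of the window and left the middle nearly bare. All 3 clusters of replicate 1 lay in the first 20 kb, from 17934927 to 17936736, 17937478 to 17939525 and 17947662 to 17949701. Of the 6 clusters of replicate 2, 3 lay between 17930967 and 17953914, 1 from 17991131 to 17992650, and 2 between 18051041 and 18060616. The single cluster in between had a score of 0.251, and 0.357% of replicate 2 scored lower. Over its first, middle and last 50 kb, coverage in replicate 2 was 15.1%, 3.04% and 7.22%, and in the set 30.9%, 4.31% and 15.99%. In replicate 1 it was 11.8% in the first 50 kb and 0% in the remainder.

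**Figure D3:**
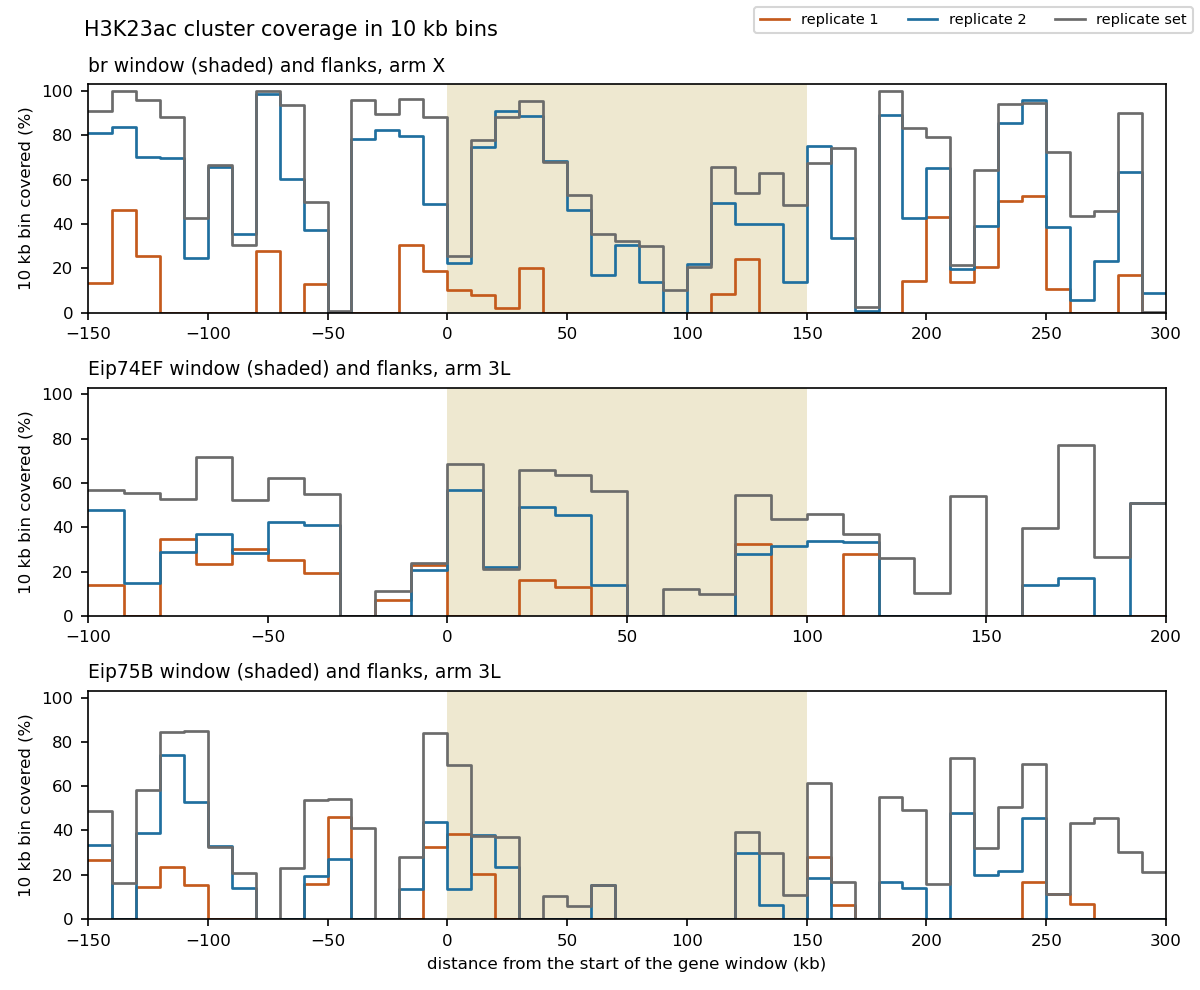
H3K23ac cluster coverage of 10 kb bins (%, y axis) along each gene window (shaded) and a flank of the same length on either side, by distance from the window's start (kb, x axis), with 1 line per list. In the br window replicate 2 reaches 91.0% in the bin from 20 kb, and in the Eip75B window 5 bins in a row from 70 kb are at 0% in all 3 lists.

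The bare stretch of Eip75B was among the longest of 3L. From 17992651 to 18050911, or 58.3 kb, no list had a cluster. In the set 1 of the 3778 gaps between clusters on 3L was longer, and the median gap was 1410 bp. In replicate 2 the corresponding stretch was 58.4 kb, 23 of 2413 gaps were longer and the median was 2903 bp. In replicate 1 the window's cluster-free stretch ran on past its end to 18084640 and was 135 kb long, with 12 of 1354 gaps longer and a median of 5664 bp. At br the longest cluster-free stretch was 87.1 kb in replicate 1, 20.6 kb in replicate 2 and 10.2 kb in the set, with 67 of 621, 250 of 1631 and 416 of 2941 gaps on X longer. The stretch without a cluster in any list there ran from 1553829 to 1564025. These are the longest gaps of each window, so each exceeds a median gap by its choice. How well short reads map there was not analysed here, and a missing cluster does not show that H3K23ac is absent.

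**Figure D4:**
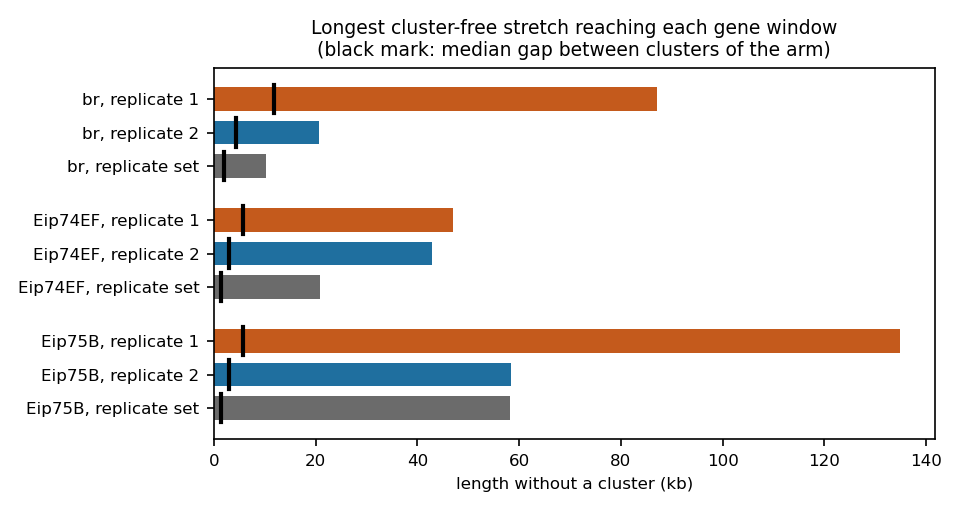
Length of the longest stretch without an H3K23ac cluster that reaches into each gene window (kb, x axis), by gene and list, with a black mark at the arm's median gap. Eip75B has the longest stretch in each list, 135, 58.4 and 58.3 kb in replicate 1, replicate 2 and the set.

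One site of Eip75B was called in both replicates and scored high in replicate 2. In replicate 2 the cluster from 17946200 to 17950182 was 3983 bp wide, the widest of the window, and its score of 0.894 lay above 99.2% of the list. Replicate 1 had a cluster of 2040 bp wholly inside it, from 17947662 to 17949701, with a score of 0.593 (above 71.9% of its list), and this was the only stretch of the window called in both replicates. The widest cluster of replicate 1 there, from 17937478 to 17939525 (2048 bp), was also its highest-scoring (0.596), and no cluster of replicate 2 overlapped it. In the set the cluster from 17946266 to 17950676 (4411 bp, score 0.637) was both the widest and the highest-scoring of 13. Among the best-scored 10% of the list were 0 of 3, 1 of 6 and 1 of 13 Eip75B clusters, where all clusters of 3L had 6.72%, 6.46% and 6.9%, which lay inside the exact intervals of the window. Median widths were 2040, 1806 and 2005 bp, against 1691.5, 1890 and 1883 bp for the rest of 3L, and median scores 0.593, 0.517 and 0.349, against 0.542, 0.531 and 0.374. Neither measure had the same direction in all lists.

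The windows beside Eip75B were more covered than the gene window. In replicate 1 it had 3.93%, against 11.7% on the side of lower coordinates and 4.62% on the other. In replicate 2 it had 8.46%, against 23.3% and 12.3%, and in the set 17.1%, against 42.1% and 38.4%. Eip74EF stood between its neighbours in replicate 1, with 6.17% against 17.7% and 2.77%, in replicate 2, with 24.7% against 26.1% and 14.9%, and in the set, with 39.6% against 44.2% and 36.8%.

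Set side by side, the ratio of a gene window to the median window of its arm had the same order in both replicates and in their set, as deposited. It was highest at br (1.31 in replicate 1, 2.98 in replicate 2 and 1.80 in the set), followed by Eip74EF (0.721, 1.06 and 0.943) and Eip75B (0.455, 0.373 and 0.405). The means of br and Eip74EF differ by little more than the SD of br. The order of Eip74EF and Eip75B turned in the better-scored 50% of replicate 1, where the ratios were 0.474 and 0.613, and in the better-scored 50% of replicate 2 they were 1.16 and 0.509, so the replicate values of these genes then overlapped. Against the mean of the 2 adjacent windows, chosen after seeing the data, the ratio averaged over replicates was 0.570 at br, 0.905 at Eip74EF and 0.479 at Eip75B. Raw coverage did not keep the order, since Eip74EF (6.17%) was above br (4.88%) in replicate 1. The genes lie on 2 arms with different coverage and their windows differ in length, and the order was not tested.

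Relative to the bases called in either replicate, the replicates shared less at the 3 genes than over their arms. At br, however, more of replicate 1 was shared than over X. At br 92.5% of the bases called in replicate 1 were called in replicate 2, and 10.9% of those of replicate 2 in replicate 1, against 62.0% and 18.2% over X. At Eip74EF the shares were 50.3% and 12.6%, and at Eip75B 34.6% and 16.1%, against 71.4% and 32.3% over 3L. The Jaccard index (shared over joint bases) was 0.108 at br and 0.164 over X, and 0.112 at Eip74EF and 0.123 at Eip75B, against 0.286 over 3L. At br the index is capped by unequal calls, 7.32 kb in replicate 1 against 61.9 kb in replicate 2. The same holds at Eip74EF, with 6.17 kb against 24.7 kb. At both genes the index could not have reached the value of the arm, however the clusters lay. Its low values there do not show poorer agreement. The shared part of replicate 2 is capped in the same way. By clusters, 7 of 10 of replicate 1 overlapped one of replicate 2 (70%, exact interval 34.8 to 93.3), where the whole list had 81.6%. In the other direction 8 of 40 did (20%, interval 9.05 to 35.6), where the whole list had 39.9% and the clusters of X, which hold most of the 40, had 25.3%. The first share is near that of the list at these numbers. Intervals cover counting error only.

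By gene, the counts of matched clusters were too small to rank the genes, and each exact interval held the share of its arm. The intervals treat neighbouring clusters as independent, which they may not be, and no test was made. On X 70.4% of replicate 1 clusters overlapped one of replicate 2 and 25.3% the other way, and on 3L 80.9% and 42.6%. At br all 3 clusters of replicate 1 overlapped one of replicate 2, and 3 of 22 the other way. At Eip74EF 3 of 4 and 4 of 12 did. There the replicate 1 cluster from 17627404 to 17629308 straddled the gap between 2 clusters of replicate 2, which covered 35.9% of it. Its longest stretch called in both replicates was the 1601 bp of the replicate 1 cluster from 17567597, whose score of 0.352 was above 0.574% of its list. At Eip75B 1 of 3 and 1 of 6 did.

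The replicate set overlapped 10 of the 10 clusters of replicate 1 in the windows (99.5% of that whole list) and 39 of the 40 clusters of replicate 2 (98.7% of that whole list), and it added narrow ones. Of its 55 clusters in the windows, 8 overlapped clusters of both replicates (14.5%), 3 of replicate 1 alone (5.45%), 27 of replicate 2 alone (49.1%) and 17 of neither (30.9%). In the whole set these shares were 21.8%, 5.34%, 33.6% and 39.3%. By gene, 7 of 25 at br, 6 of 17 at Eip74EF and 4 of 13 at Eip75B had no counterpart. Those 17 had a median width of 1265 bp, against 4707 bp for the 8 found in both, and the whole set had 1285 and 4519 bp. The narrowest cluster was 1301 bp in either whole replicate list but 1001 bp in the whole set. The median of the 17 thus lies below any width that a replicate list holds. Their narrowness was not separated from this difference between the lists. At br the 3 found in both had a median of 9117 bp and the 15 found in replicate 2 alone 2287 bp.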

How the data were processed

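Nuclei of larvae at the third instar were fixed with formaldehyde and chromatin was sonicated, per the labels' protocols. The submitters' processing notes name Bowtie 0.12.7 as the aligner. Per the file headers, the lists are regions of significant enrichment on FlyBase release 5. There is one for each of 2 ChIP replicates and one for the replicate set. The sources used here give neither the caller nor its threshold, nor how replicates were combined. The score of each cluster is the authors' deposited value on an unstated scale, and was used only within its list. Read totals are not given, so list length was not separated from depth.

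Coverage is the share of a window's bases in the union of clusters. Intervals are exact binomial (Clopper-Pearson, 95%). The tools were Python 3.11.15, scipy 1.17.1, numpy 2.4.6 and matplotlib 3.10.9. Window coverage and overlap were tested on simulated data, where 29 of 29 windows and 364 of 364 clusters came out right.

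Clusters named by coordinates are the widest and highest-scoring of each window and list, the longest stretch called in both replicates and the longest free of clusters. Any other was picked with its values in view. The genes, windows and lists were chosen with earlier results of these data known. Alternatives were the better-scored 50% of each list, other window margins and comparison windows, a width minimum, reciprocal overlap, and each replicate or the set alone. A planned description by gene part and of other ecdysone genes was not made, since no annotation of release 5 was used here.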

Additional observations from a re-analysis of the deposited data

How the results depend on the processing

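Of 86 alternative values for 18 results, 73 moved by less than the replicate SD, or stayed within the binomial interval for overlaps. With 2 replicates that SD is wide. A replicate taken alone always lies within it, since mean and SD come from the same 2 values. Those alternatives, counted among the 73, therefore could not move and say nothing on stability. Taken alone, the replicate set gave coverage of 51.3% for br, 39.6% for Eip74EF and 17.1% for Eip75B, and it is the longest list. Against the mean of its 2 adjacent windows, chosen after seeing the data, the ratio was 0.570 for br and 0.479 for Eip75B, so that br lay above the median window of X but below its surroundings. Against the mean of the other windows the ratio of br averaged 1.70 over replicates, but in replicate 1 br lay just below that mean. For Eip75B the ratio came to 0.561 with the better-scored 50% and 0.348 against the mean of the other windows, below 1 in every alternative run. For Eip74EF it was 0.817 with the better-scored 50%. In the better-scored 50% median width became 2280.5 bp at Eip74EF and 2117.5 bp at Eip75B. At Eip74EF it rests on 1 cluster of replicate 1 and 4 of replicate 2. It lies above the median widths of the rest of 3L in the full lists, so the lower median width there was not kept. With clusters of at least 2000 bp the median score became 0.731 at br and 0.668 at Eip75B, and it could not be given for Eip74EF, where replicate 1 has none. At Eip74EF the share of replicate 1 found in replicate 2 was 100% in the better-scored 50% (1 cluster), and that of replicate 2 in replicate 1 8.33% with a reciprocal overlap of 50%. No paired analysis was possible because the inputs, which share the replicate numbers, were not analysed here and no result comes from a test. Unknown depth and few clusters per window (3 or 4 in replicate 1) limit every value.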

Other observations

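The stretch of 3L between the Eip74EF and Eip75B windows, from 17640001 to 17929999, had 12 clusters of replicate 1, 25 of replicate 2 and 51 of the replicate set. They covered 7.45%, 19.0% and 39.8% of it, which lies between Eip74EF and Eip75B in replicate 2 and above both in replicate 1 and the set. Values at this stretch were read after those of the genes.

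One of the 40 member clusters of replicate 2 had no counterpart in the replicate set, although the set overlapped 98.7% of that list. It lay at the far end of the br window, from 1604797 to 1606199, with a width of 1403 bp and a score of 0.722, above 92.1% of replicate 2. The set had clusters on either side of it, from 1600114 to 1603172 and from 1606232 to 1608012.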
